A study of Mus musculus with 2 samples.

Results

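The 10 genes Gzma, Gzmb, Prf1, Nkg7, Klrk1, Klrd1, Ncr1, Cd244a, Il2rb and Itga2, which encode cytotoxic granule proteins and surface receptors of natural killer (NK) cells, were taken by name from the 21853 protein-coding genes of the annotation. DNase-seq, which maps chromatin open to cutting by DNase I, had been run on spleen of male mice of strain B6CASTF1/J, the F1 offspring of C57BL/6J and CAST/EiJ parents, aged 4 days. There were 2 libraries, both of this one group, with no treatment and no second group, and the labels call them biological replicates 1 and 2. Their biosamples are separate while their donor record is the same, so the spread given below is that between these 2 samples. A promoter was called open where peaks of both libraries overlapped each other and lay within 1 kb of a start site of the gene.

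NK cells and cytotoxic T cells kill by releasing granules, in which perforin opens the target membrane and granzymes, a family of serine proteases, start cell death. Whether an NK cell releases them is set by activating and inhibitory receptors on its surface, several of which sit together on mouse chromosome 6 in the NK gene complex. IL-15, signalling through the receptor chain that Il2rb encodes, keeps NK cells alive, and the spleen is one of the organs where mature NK cells gather.

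Only Prf1, Cd244a and Itga2 had an open promoter, which is 3 of 10 members, against 60.3% of all protein-coding genes. The same 3 had a promoter peak in replicate 1, against 63.0% of all genes, and in replicate 2, against 63.4%. The other 7 members had no promoter peak in either library, a state found in 34.4% of all genes. All 10 members were CpG-poor, as were 45.8% of all genes, meaning that CpG dinucleotides in the 1 kb centred on the most upstream start site came to under 0.5 of the number expected from base content. Their ratio ran between 0.125 for Ncr1 and 0.462 for Itga2, with a median of 0.175, against 0.561 over all genes. Of CpG-poor promoters 26.0% were open, and of the CpG-rich ones 89.3%. On the stricter peak lists 1 of the 10 promoters, that of Itga2, was open in both libraries, against 55.2% of all genes. In whole spleen, few cells carrying an open site and weak opening in many cells cannot be told apart.

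Prf1 (chr10:61297833-61304680), the gene of perforin, had promoter signals of 0.457 in replicate 1 and 0.421 in replicate 2, a mean of 0.439 ± 0.0254 (SD, n = 2). Signals are given as deposited, in units that no source used here defines. Of all genes with a promoter peak, 7.19% in replicate 1 and 7.56% in replicate 2 had a lower one. Neither peak was on a stricter list.

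Cd244a (chr1:171559193-171609746), the gene of 2B4, a SLAM family receptor that binds CD48, had promoter signals of 0.527 and 0.585 in replicates 1 and 2, a mean of 0.556 ± 0.0407 (SD, n = 2). These exceeded 9.43% and 12.6% of genes with a promoter peak. Its peak was on the stricter list in replicate 2 alone. The 2 peaks overlapped in part, and when an overlap of 50% of each peak was required, Cd244a was lost and 2 promoters stayed open.

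Itga2 (chr13:114833081-114932100), the gene of the collagen-binding integrin α2 chain (CD49b), had the strongest promoter of the 10, with 0.849 in replicate 1 and 1.02 in replicate 2, a mean of 0.936 ± 0.122 (SD, n = 2). It exceeded 16.5% and 20.6% of genes with a promoter peak. The order Itga2, Cd244a, Prf1 was the same in both libraries, and the values of neighbours in this order did not overlap. All 3 were far below the median over genes with a promoter peak, which was 6.02 in replicate 1 and 4.92 in replicate 2.

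**Figure D1:**
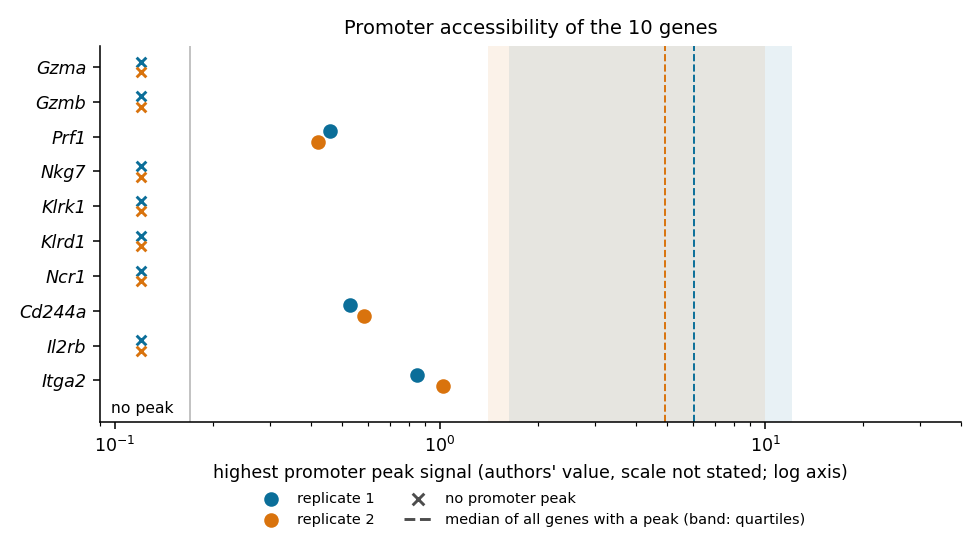
Highest promoter peak signal (log axis) of each of the 10 genes in replicate 1 (blue) and replicate 2 (orange). Crosses left of the grey line mark genes with no promoter peak, dashed lines the median over all genes with a peak (6.02 and 4.92) and bands the quartiles. Only Prf1, Cd244a and Itga2 have values, all between 0.421 and 1.02.

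The DNA of the open promoter sites is shown because these are the only start regions of the 10 genes where both libraries found a peak. Sequences are of GRCm38 from RefSeq, in lower case and 5′ to 3′ on the gene's strand. Capitals mark bases inside a footprint, a short protected stretch within open chromatin, in both libraries. The Prf1 site is the whole of chr10:61297645-61297754 (plus strand). The Cd244a stretch is the part of its site before the start site, chr1:171558981-171559192 (plus strand). The Itga2 stretch, chr13:114931801-114931933 (minus strand), begins at the start codon and holds 58 bases of exon 1 and then the start of intron 1.
Prf1: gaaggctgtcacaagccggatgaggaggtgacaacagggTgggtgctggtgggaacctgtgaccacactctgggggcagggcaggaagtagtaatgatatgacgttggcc
Cd244a: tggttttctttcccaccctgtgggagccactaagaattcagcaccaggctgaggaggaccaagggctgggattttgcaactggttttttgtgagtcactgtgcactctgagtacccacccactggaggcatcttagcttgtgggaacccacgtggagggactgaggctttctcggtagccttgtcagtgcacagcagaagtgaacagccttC
Itga2: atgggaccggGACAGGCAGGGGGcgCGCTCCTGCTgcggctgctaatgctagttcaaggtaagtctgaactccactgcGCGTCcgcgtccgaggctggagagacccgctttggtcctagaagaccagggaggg

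In the Itga2 stretch 28 of 133 bases lay in footprints of both libraries, and 3 footprints of its promoter overlapped between libraries. In the Prf1 site a footprint of replicate 1, chr10:61297684-61297690, and one of replicate 2, chr10:61297678-61297684, met in 1 base. Cd244a had 2 overlapping footprints at its promoter, of which 1 base fell in the stretch shown. So all 3 open promoters had a footprint of both libraries, against 94.4% of all open promoters, while none of the 7 closed promoters had a footprint in either library, against 0.0666% of all genes without a promoter peak that had one. Over all genes, open or closed, 57.0% had a footprint of both libraries within 1 kb of a start site.

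The positions of the peaks differed between the 3 genes. The Prf1 peaks had their midpoints at -148.5 and -128 bp from the start site, that is, upstream. The Cd244a peak of replicate 2 reached from 212 bases upstream into the gene, and that of replicate 1 covered the start site. The Itga2 peaks had their midpoints 189.5 and 199.5 bp inside the gene, and a weaker peak over the start site itself, at 0.532, was called in replicate 1 alone. Over that stretch of 200 bases the authors' position lists, which hold bases under an FDR of 0.05, held 200 bases in replicate 1 and 197 in replicate 2, with lowest FDRs of 6.89e-05 and 2.47e-05. The second start sites of Prf1 and Itga2 had no peak within 1 kb in either library.

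The closed promoters were looked at below the peak threshold through the authors' position lists, which hold the bases whose cutting passed a false discovery rate (FDR) of 0.05. Gzma, Gzmb, Nkg7, Klrk1 and Ncr1 had no listed base within 1 kb of a start site in either library. Klrd1 had 1 listed base in replicate 2, with an FDR of 0.0483, and Il2rb had 1 in replicate 1, with an FDR of 0.0462. Over all genes without a promoter peak, 1.85% in replicate 1 and 2.24% in replicate 2 had any listed base. At the open promoters the lowest FDR was 0.0205 and 0.0132 for Prf1, 0.0014 and 0.000202 for Cd244a, and 1.92e-08 and 6.51e-10 for Itga2, each in replicates 1 and 2. Between 0% and 5.48% of the 31-base words of the members' promoter windows occurred again elsewhere in the genome, the highest share being that of the open Prf1 promoter.

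Gzma and Gzmb encode granzymes A and B, of which the first cuts after basic residues and the second after aspartate and activates caspases. The Gzma gene (chr13:113093825-113100981) had no peak of either library and no listed base in its gene body and the 50 kb on each side. The nearest site of both libraries lay 64.9 kb away at the promoter of Cdc20b, with signals of 1.47 and 1.38. The window of Gzmb (chr14:56258838-56262260) held 1 weak peak, of replicate 2 alone, at chr14:56296941-56296975 with a signal of 0.343. For Gzmb the nearest site of both libraries was intergenic and 52.3 kb upstream, with signals of 0.430 and 0.507. The other granzyme genes of the Gzmb window, Gzmc and Gzmf, had closed promoters too.

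No peak of either library was found in the gene body plus 50 kb for 3 of 10 members, Gzma, Klrk1 and Ncr1, against 6.95% of all genes. All 3 had a closed promoter, so they were 3 of the 7 closed members. The matching shares were 17.5% of all genes with a closed promoter and 19.5% of those that were also CpG-poor. A site of both libraries was missing from 4 of 10 windows, Gzmb being the fourth, against 14.8% of all genes. The share of 31-base words found again elsewhere in the genome was 29.8% in the Klrk1 window, 37.6% in that of Ncr1, 26.3% in that of Gzmb and 13.5% in that of Gzma, while the other 6 windows had between 2.54% and 16.6%. Its part in these counts was not tested.

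Ncr1 (chr7:4337724-4345164), the gene of the activating receptor NKp46, had its nearest site of both libraries 63.6 kb upstream at chr7:4274001-4274260, with signals of 0.656 and 0.548. That site was intergenic, and Lilra5 was the gene with the nearest start site. No base in the Ncr1 window was on the position list of either library. Gp6, a platelet collagen receptor gene and the only other protein-coding gene overlapping the window, had a closed promoter.

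Klrk1 (chr6:129610323-129623864) encodes NKG2D, an activating receptor, and Klrd1 (chr6:129591782-129598775) encodes CD94, which pairs with NKG2 receptors, and their windows in the NK gene complex overlap. The Klrk1 window held 5 other protein-coding genes, Klre1, Klrd1, Klrc1, Klrc2 and Klrc3, and none had an open promoter. The position list of replicate 2 held 1 base in it and that of replicate 1 held none. For both genes the nearest site of both libraries was chr6:129559401-129559580, at 1.31 and 1.36, which lay 63.3 kb downstream of Klrk1 and 32.3 kb upstream of Klrd1. A further site, chr6:129544347-129544500, lay 47.4 kb upstream of Klrd1 with 0.446 in replicate 1 and 0.948 in replicate 2. Of all sites in the members' windows, it had the largest log2 ratio between the libraries, 1.25 after centring on all shared regions. Gabarapl1, an autophagy gene in the Klrd1 window, had an open promoter at 2.72 and 1.92.

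Nkg7 (chr7:43437073-43438249), which encodes a granule membrane protein needed for degranulation, had a closed promoter, as did the genes on either side of it, Lim2 and Cldnd2. Of the 6 other protein-coding genes in its window 2 were open, Siglecg and Etfb. The window held 11 sites of both libraries, of which 7 were distal, meaning over 1 kb from every protein-coding start site. The strongest distal site, chr7:43465541-43465720, lay 28.5 kb downstream in an intron of Vsig10l and had signals of 7.81 and 6.55. A second one, chr7:43466461-43466640, lay 29.4 kb downstream with 4.16 and 3.18. Upstream, the intergenic site chr7:43423081-43423260 was 13.9 kb from Nkg7 and had 2.67 and 2.93. The site nearest to Nkg7 was 6.44 kb downstream at the promoter of Etfb, a mitochondrial electron transfer gene whose promoter reached 7.81 and 7.01.

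Il2rb (chr15:78479256-78495271), the gene of the β chain shared by the IL-2 and IL-15 receptors, also had a closed promoter but 6 sites of both libraries in its window, 5 of them distal. The strongest were in introns of Tmprss6, a membrane protease gene. The site chr15:78447761-78447920 had 10.3 and 8.24 and lay 45.9 kb downstream of Il2rb. The site chr15:78448321-78448480 had 8.66 and 6.33 and lay 45.4 kb downstream. The signals at 45.9 kb exceeded 93.0% and 92.7% of all shared regions. The nearest site, chr15:78514661-78514840, was intergenic, 19.5 kb upstream, with 1.57 and 1.95. Inside the Il2rb gene body 1 weak peak, of replicate 1 alone, was found, at 0.478.

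The 3 members with an open promoter had distal sites as well. Around Prf1 all 3 distal sites lay downstream in Pald1, with 1.93 and 1.86 at 36.5 kb, 1.55 and 1.70 at 41.9 kb, and 2.02 and 1.30 at 44.4 kb from the nearest Prf1 start site. Each of them was stronger than the Prf1 promoter itself in both libraries. Cd244a had 3 sites of both libraries in introns at 2.77, 5.28 and 7.84 kb from its start site, and the last of them, chr1:171566941-171567120, was the strongest distal site in its window, with 1.61 and 1.51. Itga2 had 4 intron sites over its long gene body, all weak, between 0.237 and 0.683. An intron of Itga1, the gene of a neighbouring collagen-binding integrin chain, held another, chr13:114964361-114964540, at 0.828 and 0.801. The strongest region of the Itga2 window was the promoter of Mocs2, a molybdenum cofactor gene, at 12.3 and 10.1.

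**Figure D2:**
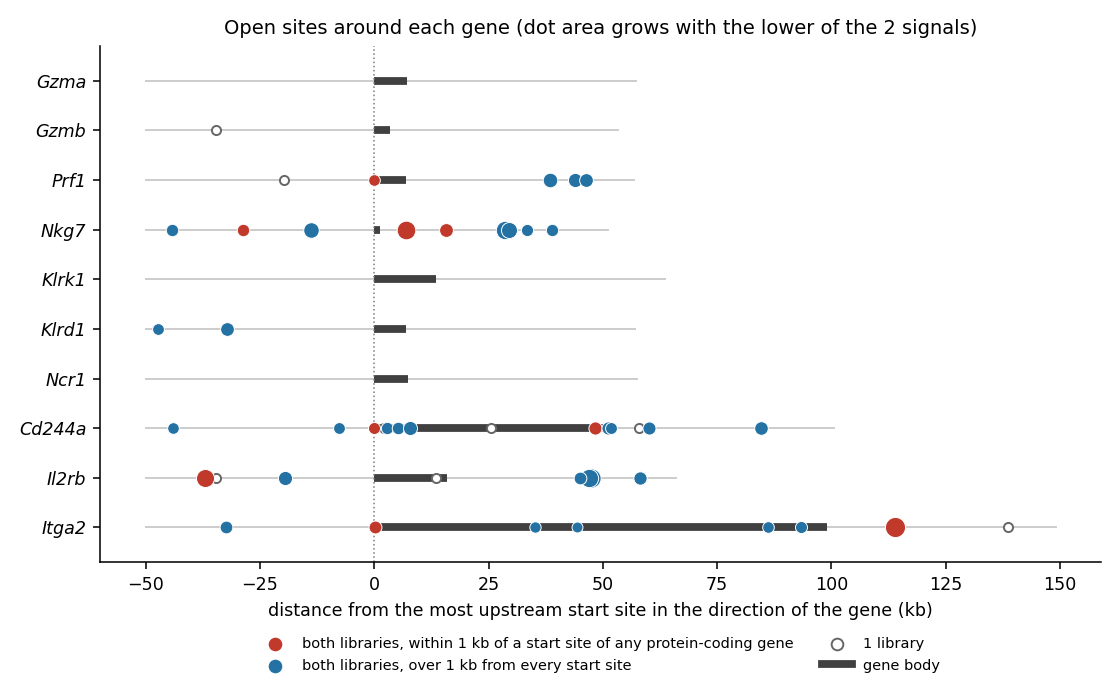
Open sites in the gene body plus 50 kb of each gene, by distance from its most upstream start site in the direction of the gene (kb). Filled dots are sites of both libraries, red within 1 kb of a start site of any protein-coding gene and blue farther away, with area growing with the lower signal; open dots are peaks of 1 library. Gzma, Klrk1 and Ncr1 have none, and Nkg7 and Cd244a have the most shared sites, 11 each.

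At least 1 distal site of both libraries lay in the window of 6 of 10 members, against 79.5% of all genes, and of 3 of the 7 closed members, against 59.0% of all closed genes and 55.5% of those that were also CpG-poor. The median number of sites of both libraries per window was 3 for the 10 members, against 6 for all genes, 2 for closed genes and 1 for closed CpG-poor genes. The median distance to the nearest such site was 25.9 kb for members, against 0.129 kb for all genes and 31.5 kb for closed genes. Taken over all 10 members, 3 of them open, both medians and the share of windows with a distal site lay between those of all genes and those of closed genes. For the closed members alone the share, 3 of 7, was below both the 59.0% and the 55.5%.

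**Figure D3:**
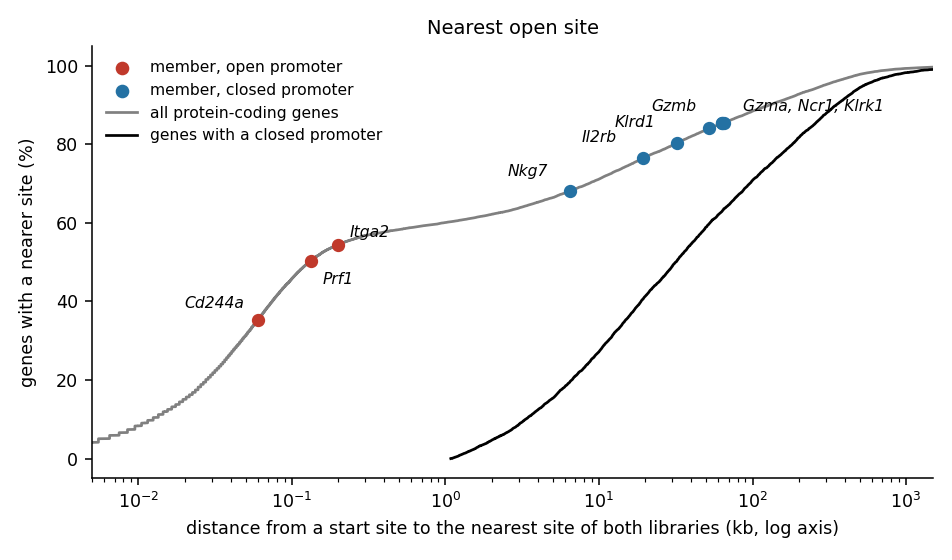
Distance from a start site to the nearest site of both libraries (kb, log axis) for the 10 genes, red with an open and blue with a closed promoter, drawn on the cumulative percentage of all protein-coding genes (grey); the black curve covers genes with a closed promoter alone. The closed members run from Nkg7 at 6.44 kb to Gzma at 64.9 kb.

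Counted once each, the 10 windows held 55 sites, of which 41 were found in both libraries and 14 in 1 library, 7 in each. Of these 14, 13 had a signal below 1, and the exception, at 2.28 in replicate 2, adjoined the strongest distal Nkg7 site and had all of its 240 bases on the position lists of both libraries. A site with a peak in 1 library alone can thus pass the position FDR in the other. Of the 41 shared sites, 27 were on the stricter lists of both libraries, against 69.1% of all shared regions, and 38 had a footprint of both, against 77.8%. Their median signal was 0.957 in replicate 1 and 1.02 in replicate 2, against 1.08 and 0.989 over all shared regions. The log2 ratio of replicate 2 over replicate 1, centred on all shared regions, had a median of 0.07 at these sites and ran between -0.47 and 1.25. The range from the 5th to the 95th percentile of all shared regions was -0.48 to 0.59, and without centring the median was -0.09, of the opposite sign.

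**Figure D4:**
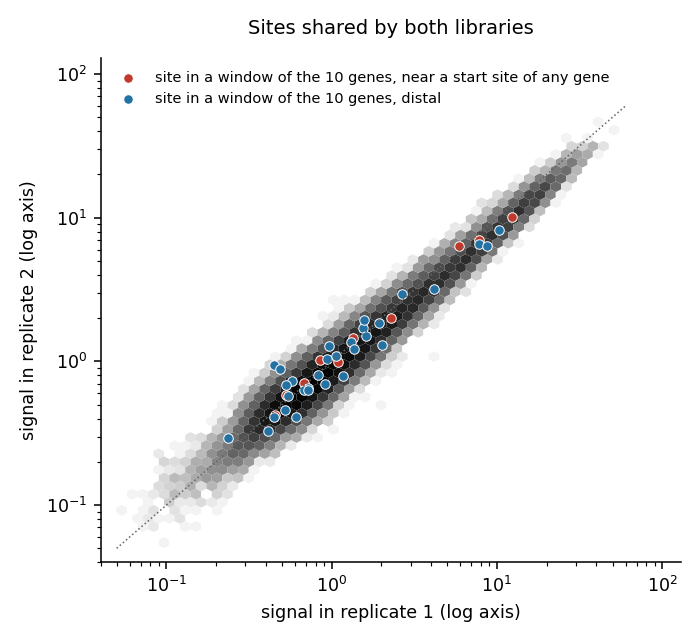
Signal in replicate 1 and replicate 2 (both log axes) of the 41 sites of both libraries in the windows of the 10 genes, red near a start site of any protein-coding gene and blue distal, over all shared regions (grey, darker where more regions fall). The member sites lie within the cloud of all regions, and the Klrd1 site at 0.446 and 0.948 is the farthest above the dotted line of equal signal.

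Some of the distal sites shared a string of bases. A run matching CCNNNAG followed directly by NNGGC on either strand, which is taken from the core of the sequence that the insulator protein CTCF binds, was in 12 of the 31 distal sites, against 27.4% of all distal regions. This string was added to the search after the footprint sequences had been seen. It was in 9 of 13 distal sites whose signal was at least 1 in both libraries, against 36.8% of all such regions, and in 3 of 18 weaker ones, against 22.3%. Shares were taken in windows of 200 bases on the midpoint of each region. It was in none of the 10 member promoters. The 12 stretches are shown in the direction of the string, which is in capitals, with 12 bases on each side, so that the core and its surroundings can be compared between genes; coordinates are those of the string.
Prf1, chr10:61336285-61336296, minus strand: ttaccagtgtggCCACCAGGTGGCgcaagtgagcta
Prf1, chr10:61341676-61341687, plus strand: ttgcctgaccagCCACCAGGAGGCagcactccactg
Prf1, chr10:61344165-61344176, minus strand: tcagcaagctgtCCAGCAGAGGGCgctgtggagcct
Nkg7, chr7:43423166-43423177, plus strand: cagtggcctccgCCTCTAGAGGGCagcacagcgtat
Nkg7, chr7:43466582-43466593, minus strand: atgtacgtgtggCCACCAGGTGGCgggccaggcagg
Nkg7, chr7:43470560-43470571, plus strand: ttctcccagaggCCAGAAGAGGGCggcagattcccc
Klrd1, chr6:129559485-129559496, minus strand: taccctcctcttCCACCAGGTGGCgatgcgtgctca
Cd244a, chr1:171564466-171564477, minus strand: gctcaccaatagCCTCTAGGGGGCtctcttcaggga
Cd244a, chr1:171567039-171567050, minus strand: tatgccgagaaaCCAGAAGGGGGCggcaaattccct
Cd244a, chr1:171610225-171610236, plus strand: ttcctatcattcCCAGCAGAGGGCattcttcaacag
Il2rb, chr15:78447810-78447821, plus strand: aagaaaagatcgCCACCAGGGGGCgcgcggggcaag
Il2rb, chr15:78514739-78514750, plus strand: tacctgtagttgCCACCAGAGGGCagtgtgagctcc

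In 10 of these 12 stretches the whole string lay inside a footprint of each library. The exceptions were the third Nkg7 stretch, which was inside a footprint in replicate 2 alone, and the first Cd244a stretch, which was inside none. Because the string was chosen after the footprint sequences had been seen, this count is not independent of them. The share of such strings inside footprints over all distal regions was not computed. All 3 distal Prf1 sites held the string, as did the Klrd1 site nearest to both Klrd1 and Klrk1 and the nearest Il2rb site. The strongest distal Nkg7 site did not.

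The promoters, taken as the 250 bases before the most upstream start site, were searched for strings known from regulators of cytotoxic genes. TGTGGTT on either strand, the core bound by RUNX factors, was in 4 of 10 member promoters, against 4.20% of all promoters and 5.94% of CpG-poor ones. All 4 were closed. The stretches are shown in the direction of the string, in capitals.
Gzma, chr13:113101026-113101032, opposite to the gene: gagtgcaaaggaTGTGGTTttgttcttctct
Gzmb, chr14:56262362-56262368, same strand as the gene: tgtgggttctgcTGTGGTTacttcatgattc
Klrk1, chr6:129623987-129623993, same strand as the gene: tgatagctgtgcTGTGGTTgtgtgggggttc
Ncr1, chr7:4337539-4337545, same strand as the gene: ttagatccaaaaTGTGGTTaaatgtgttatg

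The Gzmb promoter held the most kinds of string of the 10. In its last 150 bases, chr14:56262261-56262410 (minus strand), capitals mark TGANTCA, the AP-1 string, then TGTGGTT, then TTCNNNGAA, the string bound by STAT factors.
Gzmb: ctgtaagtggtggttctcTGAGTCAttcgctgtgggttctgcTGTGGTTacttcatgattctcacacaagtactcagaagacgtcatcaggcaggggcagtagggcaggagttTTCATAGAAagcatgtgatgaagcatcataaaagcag

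The AP-1 string was also in the promoters of Klrd1 and Cd244a, 3 of 10, against 5.91% of all promoters and 9.04% of CpG-poor ones. The STAT string was also in that of Nkg7, 2 of 10, against 7.23% of all promoters and 9.51% of CpG-poor ones. The T-box string TCACACCT and the longer ETS string ACAGGAAGT were in none, against 1.01% and 0.714% of all promoters. The shorter forms GGTGTGA and AGGAAG, which lie within them on one strand or the other, were in 2 promoters each, against 3.20% and 28.8%. Among CpG-poor promoters the shares of these shorter forms were 3.77% and 33.3%. A match of letters describes the sequence and says nothing of binding.

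Of 59 genes in 5 lists of related functions, 38 had an open promoter, against 60.3% of all protein-coding genes. That share also stands beside the count of each list below, and the lists were not split by CpG content. Of 16 genes of the granule and killing machinery, 11 had an open promoter, with the highest signals at Lyst, which controls the size of lytic granules (15.6 ± 2.90, SD, n = 2), and Lamp1, a lysosomal membrane protein gene (14.3 ± 2.14). Ctsw, a cathepsin gene, and Fasl, the gene of a death ligand, had no promoter peak. The granzyme genes Gzmc, Gzmk and Gzmm, named here after their values were seen, had none either.

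Of 21 genes of NK receptors, adaptors and SLAM partners, 7 were open, against 60.3% of all genes. They were led by the Fc receptor gene Fcgr3 (5.01 ± 0.154, SD, n = 2) and its signalling chain Fcer1g (1.20 ± 0.327). Cd160, a receptor gene, and Cd247, which encodes the CD3ζ chain, had no promoter peak. The adaptor genes of activating receptors, Tyrobp (1.06 ± 0.0108) and Hcst (1.13 ± 0.145), were open and were named after their values were seen. Hcst encodes DAP10, the partner of the Klrk1 product.

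Of 8 genes of IL-2 and IL-15 signalling, 7 were open, against 60.3% of all genes. Jak1 stood at 17.4 ± 2.24 and Stat5a at 5.19 ± 0.451 (SD, n = 2). Il2ra, the gene of the α chain of the IL-2 receptor, had no promoter peak. Of 10 transcription factor genes of NK cells, 9 were open, against the same 60.3%, led by Ets1 (11.2 ± 0.342) and Id2 (5.99 ± 0.777). Tbx21, the gene of T-bet, had no promoter peak. Eomes, the related T-box factor gene, named after its values were seen, was open at 0.516 and 0.446, about as weak as Prf1. All 4 integrin partner genes were open, with Itgb1, the partner chain of the Itga2 product, at 6.47 ± 2.28 and Itgb2 at 1.72 ± 0.102.

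**Figure D5:**
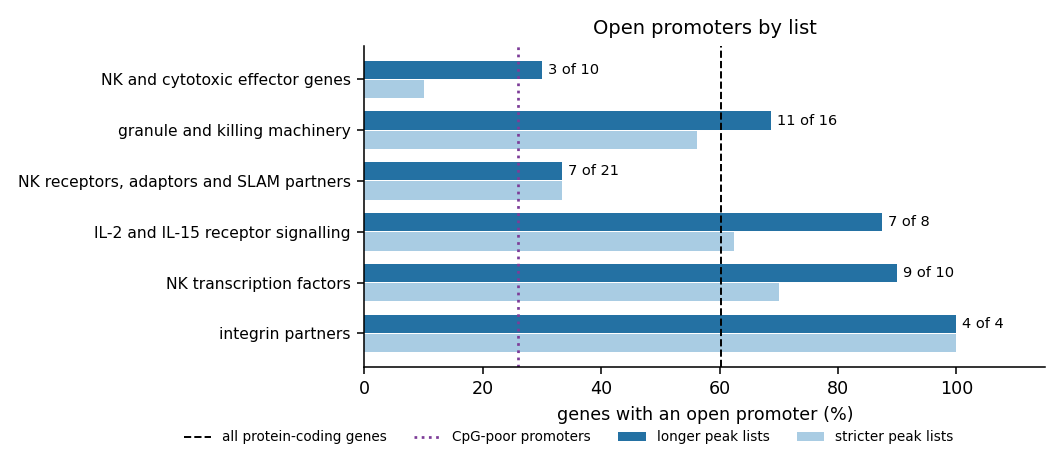
Percentage of genes with an open promoter in both libraries for the 10 genes and for 5 lists of related genes, on the longer (dark) and the stricter (light) peak lists. The dashed line is the share of all protein-coding genes (60.3%) and the dotted line that of CpG-poor promoters (26.0%), both on the longer lists. On the stricter lists, for which no line is drawn, 55.2% of all genes were open. On the longer lists the 10 genes stand at 3 of 10 and the integrin partners at 4 of 4.

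Markers of other cell types were read in the same way, beside the 60.3% of all protein-coding genes that were open. They were not split by CpG content. Erythroid and B cell markers were open in 5 of 5 genes each, T cell markers in 4 of 7, endothelial and stroma markers in 2 of 4, mast cell and macrophage or dendritic markers in 1 of 4 each and hepatocyte markers in 0 of 3. T cells can express the granzymes, Prf1 and Il2rb, and megakaryocytes and mast cells Itga2. Itga2b, a megakaryocyte integrin gene, had promoter signals of 0.790 and 0.621, and Gp9, a platelet receptor gene, 1.10 and 0.924, while Pf4, a platelet chemokine gene, had no promoter peak. The open T cell genes were Lck at 1.67 and 1.01, Cd3d at 1.56 and 1.49, Cd5 at 1.02 and 1.34, and Cd3g at 0.978 and 0.850, while Cd4 and Cd3e had no promoter peak in either library. Cd8a was not open and had a promoter peak in replicate 2 alone, at 0.356. Among the mast cell genes Kit was open at 3.17 and 2.53, and Cma1, Cpa3 and Fcer1a had no promoter peak. The part of these cell types in the open Prf1, Cd244a and Itga2 promoters was not tested.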

How the data were processed

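The authors deposited, for each of 2 libraries, 2 narrowPeak lists, footprints and a position list, on mm10 per the labels and the listing of files. The peak signal was deposited per peak, called on each library alone, on a scale that is not stated. The FDR (q-value) of the authors is 0.01 for every footprint and under 0.05 for every listed position. The aligner, the callers, their versions and the placing of CAST/EiJ reads on the reference were not given in the sources used here. Read totals were not used, so depth is unknown and no counting interval is given.

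The longer lists held 80323 and 88723 peaks in replicates 1 and 2, the stricter ones 51123 and 56521, with 217159 and 252901 footprints. Peaks of both libraries overlapping by at least 1 bp were merged into 60596 shared regions, with the highest peak of each library as the signal. Start sites were the 54361 of protein-coding genes in GENCODE vM21. Members' windows were the gene body plus 50 kb, and distances run from region midpoints. Strings were searched on both strands, in 250 bases before the most upstream start site and in 200 bases on region midpoints. Peak ends were compared with the chromosome lengths of the RefSeq GRCm38 genome, and no peak ended past a chromosome end. The 9 RefSeq promoter sequences available for 8 of the members equalled the genome sequence. Planted peaks were recovered in a test on simulated data.

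All 10 members were named, with the strongest distal site of each of the 6 members that had one. Of each list of related genes, the 2 strongest promoters and the first 2 by alphabet without a peak were named. A marker gene of the megakaryocyte list, and with it the count of that list, is not reported here. The members and lists were chosen with earlier results of these data known. With 1 group of 2 libraries there is no contrast, so no test was made and no gene of like pattern was sought. The tools were samtools 1.23.1, pysam 0.24.0, pandas 2.3.3, numpy 2.4.6 and matplotlib 3.10.9 under Python 3.11.15. Alternatives were a single library, the stricter lists, other windows and flanks, a stricter overlap, scaling by the median peak, other start site sets and joined loci.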

Additional observations from a re-analysis of the deposited data

How the results depend on the processing

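The number of members with an open promoter was 3 and was 1, Itga2, on the stricter peak lists. Members with a distal site numbered 6, and 2, Cd244a and Itga2, with flanks of 10 kb. With flanks of 100 kb they numbered 9, as Gzmb, Klrk1 and Ncr1 joined. The median number of shared sites per window, 3 with flanks of 50 kb, was 0 with flanks of 10 kb and 6.5 with flanks of 100 kb. These shifts follow from shorter lists and from shorter or longer windows. Shares and medians over all genes were not computed at flanks of 10 and 100 kb. The values at those flanks therefore show nothing particular to the members. Another 27 recomputed values of the main results stayed within 1.5 times, or within the spread between libraries, of the values reported. The 9 members at 100 kb are counted among these 27, at the limit of 1.5 times.

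Without replicate 1 or without replicate 2, open promoters numbered 3 to 3, members with a distal site 6 to 7 (Gzmb joined in replicate 2), the median of sites per window was 3 to 3.5, the median promoter signal of the open members 0.527 to 0.585, and members with a promoter footprint 3 to 3. The basic transcript set gave 3 open promoters and the joined Klrk1 and Klrd1 loci a median of 4; both settings were chosen after seeing the data. Without centring, the replicate ratio was -0.09, of the opposite sign. Prf1 and Cd244a have no signal on the stricter lists of both libraries, so the median promoter signal could not be recomputed there. No paired analysis was possible because there is only 1 group. The Prf1 and Cd244a calls rest on weak peaks, which were not on the stricter lists of both libraries. Depth is unknown.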

Other observations

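Among the 41 shared sites in the windows of the 10 genes, TGANTCA was in 7, against 5.25% of all shared regions. These were a Cd244a promoter site, an Etfb site in the Nkg7 window, a Tmprss6 intron site in the Il2rb window and 4 more. Around Itga2 they were the Mocs2 promoter and the Itga1 intron site. The other 2 lay past the 3′ end of Cd244a and began 2.71 and 3.49 kb from the Ly9 start site, the nearest one. TGANTCA was in 4 of the 31 distal sites, against 6.65% of all distal regions. GGGCGG, known from KLF and SP factors, was in 13 of 41, against 28.7%, and in 10 of 31 distal sites, against 14.0% of all distal regions. In 2 of the 13 it overlapped the CTCF-like string. The shorter ETS form was in 6 of 41 sites, against 28.8%, and in 3 of 31 distal sites, against 31.9% of all distal regions. The longer ETS form was in 0 of 41, against 1.19%, and the STAT string in 0 of 41, against 4.43%. Of the T-box forms the longer was in 0 of 41, against 0.688%, and the shorter in 1 of 41, against 2.94%. Not all strings searched at the sites are listed here. AGATAA, the GATA string, was in 2 of 41 sites, against 8.72%, and TGTGGTT in 1 of 41, an intron of Slamf7 in the Cd244a window, against 4.87%. TGTGGTT was thus in 4 member promoters without a peak and in 1 site with one.

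The Cd244a window lies in the SLAM receptor cluster. Ly9 in it had an open promoter at 1.09 and 0.997, while Slamf7 had none, although one of its introns held a site of both libraries at 1.37 and 1.23. Siglecg, a lectin receptor gene in the Nkg7 window, was open at 0.677 and 0.711, and Itga1 in the Itga2 window at 0.694 and 0.589.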
